A study of Mus musculus with 9 samples.

Results

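The odorant receptor genes Olfr1417 to Olfr1505 were examined in RNA sequencing libraries of the whole main olfactory epithelium (MOE), the sheet of tissue in the nose that holds the olfactory sensory neurons. The genes were taken by symbol alone, as Olfr with any whole number between those of Olfr1417 and Olfr1505, with or without a -ps suffix for pseudogenes. The rule found 59 genes of 1125 Olfr genes and 24421 genes in all, and none of the 59 carried the -ps suffix. GENCODE lists 28 more genes under such symbols, 27 of them with -ps, which were not analysed here. In GENCODE M21 (build GRCm38) all 59 were protein-coding genes on chromosome 19. They ran from Olfr1417 at chr19:11826803-11839219 on the minus strand to Olfr1505 at chr19:13913530-13921866 on the plus strand, and 33 lay on the plus and 26 on the minus strand.

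The 9 libraries came from mice labelled C57BL/6, at postnatal day 14, in 3 groups of 3 libraries, namely wild type (WT) and heterozygous (het) or homozygous (homo) TAAR enhancer 2 knockout, and no treatment was named. In this line CRISPR-Cas9 editing had removed TAAR enhancer 2, an element within the cluster of trace amine-associated receptor (Taar) genes on chromosome 10, from 1 allele in het and from both alleles in homo animals. It is a single established line, and the mouse lines of the study are described as having a mixed background that includes C57BL/6J. The deletion was inherited through the germline and is thus not limited to olfactory neurons, and the WT animals were littermates with both alleles intact. The 3 libraries of a group came from 3 mice, so the p-values measure the spread between mice of this line only. The question put to the chromosome 19 genes was whether receptors on another chromosome differed between the genotypes.

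Odorant receptors are G protein-coupled receptors whose coding sequence usually lies in a single exon, with upstream non-coding exons spliced to it. Each mature olfactory neuron that expresses an odorant receptor transcribes a single allele of a single receptor gene. The silent odorant receptor clusters stay packed in heterochromatin. Transcription of the clusters depends on enhancers scattered over many chromosomes, which bind Lhx2, Ebf proteins and the cofactor Ldb1. The level of a receptor in whole tissue therefore depends on how many neurons chose the gene and on how much transcript each of them holds, and in bulk samples these cannot be told apart.

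Total counts per library lay between 20527992 and 32262005, and the 59 genes took between 3075 and 6010 counts of them. The line was checked with Taar6, which flanks the deleted element. It stood at 6.57, 6.62 and 6.27 CPM in WT, 4.54, 4.42 and 5.23 in het and 0.635, 0.610 and 0.743 in homo replicates 1, 2 and 3, so no groups overlapped (homo versus WT log2 fold change −3.28, SE 0.18, edgeR adjusted p = 3.22e-04). Here CPM is the count relative to a library size scaled by the TMM method. Markers of mature olfactory neurons were present in all libraries, with summed levels of 8 genes between 6326 and 7315 CPM. In the libraries with replicate number 1, the summed level of 6 immature neuron genes stood apart from the rest, though only 2 of the 6 were called there. WT replicate 3 had the highest summed level of 5 neutrophil genes at 3431 CPM.

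Several of the receptors were close copies of each other, which bears on how their reads could be counted, so the coding sequences are shown first for the pairs and the triplet on which the later values turn. Between the closest pair, Olfr1502 and Olfr1505, the coding sequences were 97.5% identical, with 24 of 951 positions differing. The 90-base stretch with the most differences, from coding position 857 counted from the A of the start codon, lies on the plus strand at chr19:13862651-13862740 for Olfr1502 and at chr19:13919878-13919967 for Olfr1505. Capitals mark the 10 positions that differ.
Olfr1502: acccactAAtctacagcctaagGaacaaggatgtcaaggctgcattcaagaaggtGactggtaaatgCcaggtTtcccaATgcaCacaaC
Olfr1505: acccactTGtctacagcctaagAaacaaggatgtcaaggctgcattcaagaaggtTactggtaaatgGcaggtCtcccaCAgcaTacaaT

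The neighbours Olfr1436 and Olfr1437 (95.4% identical) are shown because their levels per kb of coding sequence lay furthest apart among the close pairs. Their stretch lies on the minus strand at chr19:12298632-12298721 and chr19:12322336-12322425, from coding positions 410 and 401, and capitals mark 9 differing positions.
Olfr1436: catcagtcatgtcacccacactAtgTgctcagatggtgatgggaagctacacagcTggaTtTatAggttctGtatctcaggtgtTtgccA
Olfr1437: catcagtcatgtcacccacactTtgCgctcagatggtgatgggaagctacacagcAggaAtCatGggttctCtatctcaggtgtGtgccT

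The neighbours Olfr1424, Olfr1425 and Olfr1426 are shown because Olfr1425 had the smallest share of sequence of its own. Their stretch lies on the minus strand at chr19:12059053-12059142, chr19:12073939-12074028 and chr19:12088099-12088188. Olfr1424 and Olfr1425 were identical over these 90 bases, and Olfr1426 differed at the 26 positions in capitals.
Olfr1424: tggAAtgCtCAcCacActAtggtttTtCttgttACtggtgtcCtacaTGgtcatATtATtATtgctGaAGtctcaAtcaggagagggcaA
Olfr1425: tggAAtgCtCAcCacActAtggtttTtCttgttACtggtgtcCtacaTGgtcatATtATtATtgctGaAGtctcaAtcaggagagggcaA
Olfr1426: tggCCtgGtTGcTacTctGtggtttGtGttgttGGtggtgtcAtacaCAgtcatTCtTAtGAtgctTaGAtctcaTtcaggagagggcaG

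Sequence of its own was measured as the share of 50-base windows of a gene's coding sequence that occur in no GENCODE transcript of another gene. This share had a median of 97.6% over the 59 genes, was complete for 15 of them and was under 90% for 25. The lowest share was 32.0%, for Olfr1425, followed by Olfr1417 and its neighbour Olfr1418 at 40.4% and 41.0%. The closest relative of a gene within the cluster was 88.0% identical in the median case, and for 24 genes it was the next receptor gene along the chromosome. Whether reads matching several genes were counted is not stated, so values of the close copies are uncertain as to which copy they belong to.

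Annotated promoter windows, from 250 bases before to 50 bases after the RefSeq start on GRCm38.p6, were found for 56 of the 59 genes. The homeodomain motif TAATTA, a palindrome searched on both strands, occurred in 13 of the 56 windows (23.2%). It occurred in 18.3% of 892 windows of other Olfr genes and in 5.29% of all 32851 windows. Only 9 of the 56 RefSeq starts lay within 100 bases of the outermost GENCODE start, so most of these windows may lie next to the coding exon and not at a transcription start.

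All 59 genes had counts, and 58 of them had counts in every library. Mean levels over the 9 libraries ran from 0.0920 CPM for Olfr1475 to 10.6 CPM for Olfr1427, with a median of 2.22 CPM against 2.49 CPM for 1066 other Olfr genes. Of the 59 genes, 13 lay under 1 CPM and 11 over 5 CPM. The 10 highest genes were Olfr1427, Olfr1443, Olfr1426, Olfr1428, Olfr1463, Olfr1440, Olfr1447, Olfr1420, Olfr1442 and Olfr1446, and they held 43.7% of the summed level of all 59. Per kb of coding sequence the same 10 genes stood highest, since coding lengths varied only from 924 to 1080 bases. Per kb of all GENCODE exons, which include non-coding stretches and totalled 924 to 11280 bases, 8 of the 10 stayed among the highest. The exceptions were Olfr1440 and Olfr1442.

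Olfr1427 and Olfr1443 led at 11.3 CPM per coding kb each. Olfr1427 stood at 7.36, 12.8 and 7.22 CPM in WT, 8.89, 11.5 and 11.3 in het and 8.93, 13.8 and 13.7 in homo replicates 1 to 3. Olfr1443 stood at 8.58, 11.7 and 6.41 CPM in WT, 11.2, 12.0 and 12.1 in het and 8.16, 12.7 and 12.3 in homo. The order of these genes was not the same in all libraries, because Olfr1443 was the highest gene in 4 libraries, Olfr1427 in 4 and Olfr1463 in WT replicate 3. Olfr1426 and Olfr1428, which flank Olfr1427 on the chromosome, followed at 9.28 and 9.15 CPM per coding kb. Neighbours thus made up 3 of the 4 highest genes on this scale. The ranges of these 4 genes over the libraries overlapped, and their order is within that spread. Olfr1440, known to respond to the musk odorant muscone, had rank 6 at 8.04 CPM per coding kb, but rank 26 per kb of GENCODE exons. On that exon scale the 4 highest genes were Olfr1428, Olfr1463, Olfr1427 and Olfr1491, and Olfr1426 had rank 5.

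**Figure D1:**
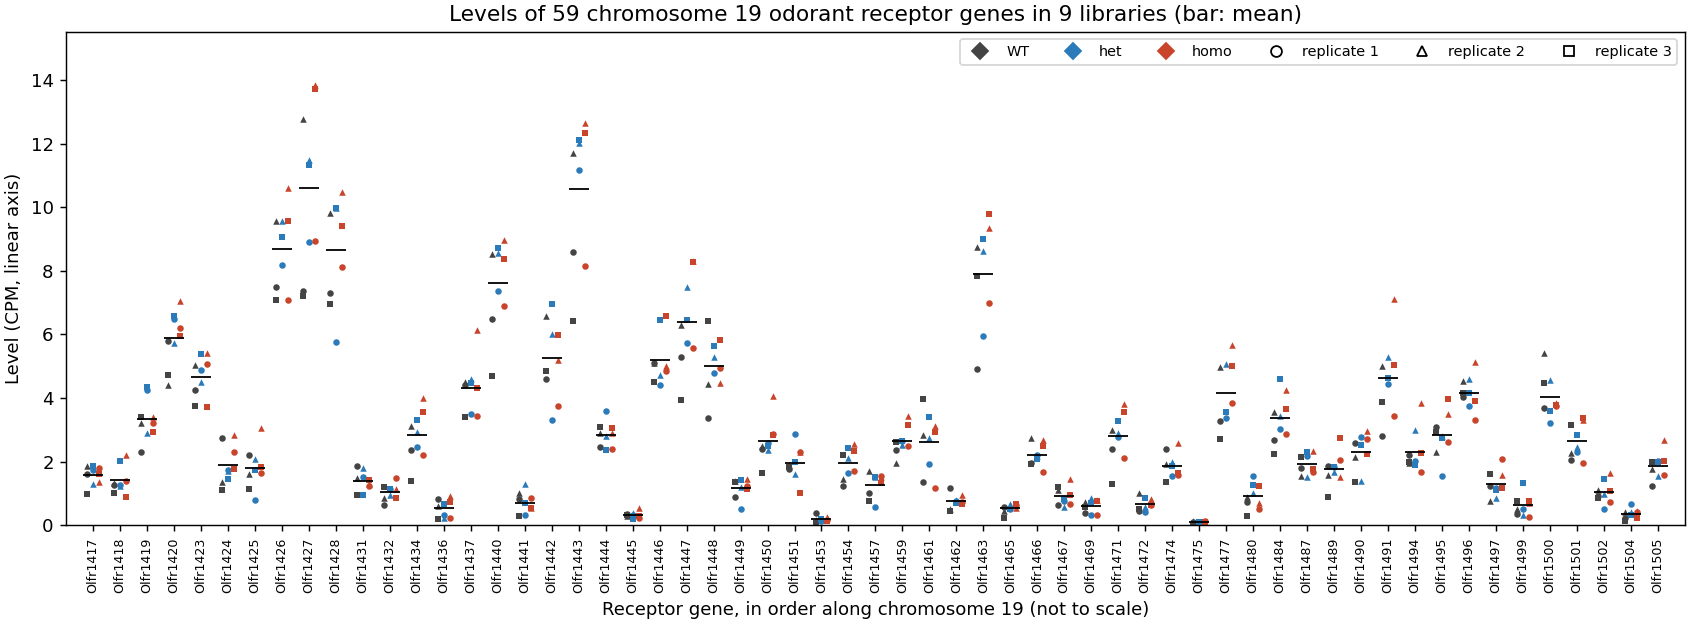
Level of each receptor gene in CPM (vertical axis, linear) in order along chromosome 19 (horizontal axis, not to scale), with colours for genotype, symbols for replicate number and a bar for the mean of the 9 libraries. The highest genes sit at Olfr1426 to Olfr1428, Olfr1443 and Olfr1463, and the points of the 3 genotypes overlap for nearly every gene.

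At the other end, Olfr1475 had 2, 4 and 0 counts in WT, 2, 1 and 3 in het and 3, 3 and 3 in homo libraries. Its level thus rested on 21 counts in all, and its fold changes, where given below, are not interpreted. Olfr1453 at 0.192 CPM, Olfr1445 at 0.325 CPM and Olfr1504 at 0.369 CPM came next. In GENCODE, 4 genes had no exon sequence beyond the coding part, namely Olfr1436, Olfr1453, Olfr1475 and Olfr1502. Their levels lay between 0.0920 and 1.03 CPM with a median of 0.361, against a median of 2.32 CPM for the 55 genes with non-coding exon sequence. In RefSeq, 7 genes had models spanning over 2000 bases (Olfr1426, Olfr1428, Olfr1434, Olfr1437, Olfr1443, Olfr1466 and Olfr1477), with a median of 4.31 CPM, and the other 52, under 1200 bases, had a median of 1.91 CPM. These RefSeq spans run from first to last base on the genome, any introns included, and are not exon lengths. For Olfr1428 the span was 7229 bases, against 2131 bases of GENCODE exons. More exon sequence collects more reads at the same level, but the annotation behind the deposited counts is not stated. The part of the gene models in these differences was not tested.

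Close copies differed widely in how far their levels lay apart. Of 9 pairs with at least 95% identical coding sequence, 3 were separate in all libraries per kb of coding sequence and 6 overlapped. Separation was not examined per kb of exon. Olfr1437 averaged 4.59 ± 0.902 CPM per coding kb (SD, 9 libraries) and its neighbour Olfr1436, printed above, 0.559 ± 0.306, which is an 8.21-fold difference. Olfr1501 stood 7.17-fold above Olfr1504, at 2.79 ± 0.576 against 0.389 ± 0.163 CPM per coding kb. Olfr1472 was likewise higher than Olfr1475 in all 9 libraries, although Olfr1475 had few counts.

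Per kb of GENCODE exon the differences shrank to 1.94-fold for Olfr1437 over Olfr1436 and 2.56-fold for Olfr1501 over Olfr1504, and no fold is read for Olfr1472 over Olfr1475 because of the few counts of the latter. For Olfr1505 and Olfr1502, the closest pair, the direction depended on the length used. Olfr1505 was 1.81-fold higher per coding kb and higher in 9 of 9 libraries, but lower per kb of exon, with a ratio of 0.466. Olfr1471 over Olfr1474 turned likewise, from 1.49-fold to a ratio of 0.594, while Olfr1484 stood above Olfr1487 on both scales (1.76-fold and 1.90-fold). Olfr1477 over Olfr1484 (1.24-fold), Olfr1447 over Olfr1446 (1.22-fold) and Olfr1417 over Olfr1418 (1.12-fold) differed little per coding kb, and their libraries overlapped. Reads that match both copies of a pair cannot be assigned here, and their share was not tested.

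**Figure D2:**
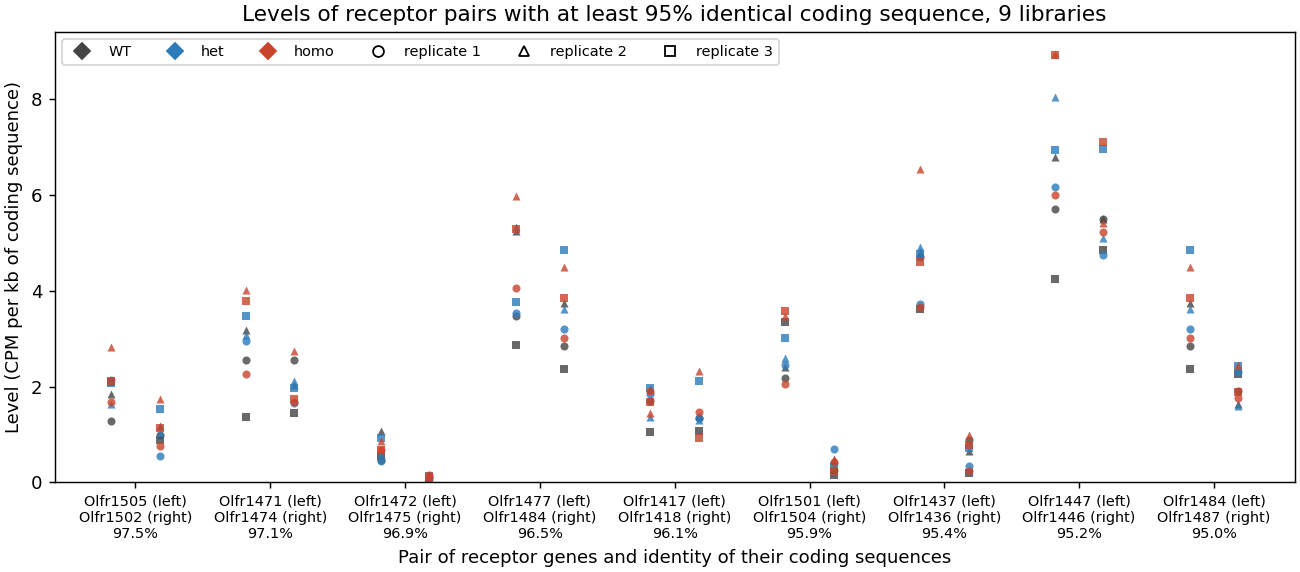
Level in CPM per kb of coding sequence (vertical axis) of both genes of each pair with at least 95% identical coding sequence (horizontal axis, with the identity), 9 libraries a gene, coloured by genotype and with symbols for replicate number. Olfr1437 and Olfr1436, Olfr1501 and Olfr1504, and Olfr1472 and Olfr1475 are apart in all libraries, and the other 6 pairs overlap.

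The summed level of the 59 genes was 151, 184 and 145 CPM in WT, 159, 184 and 192 in het and 157, 216 and 194 in homo replicates 1, 2 and 3. The genotypes overlapped, with WT replicate 2 above the lowest het and homo libraries. WT averaged 160 ± 20.9 CPM, het 179 ± 17.1 CPM (112% of WT) and homo 189 ± 29.8 CPM (118% of WT), each with its SD and n = 3. All Olfr genes together stood at 109% of WT in het and 114% in homo, and the 59 genes took 4.51 ± 0.271% of all Olfr counts in WT, 4.63 ± 0.116% in het and 4.66 ± 0.211% in homo libraries. Within the libraries of replicate number 1, homo stood at 104% and het at 106% of WT, and within numbers 2 and 3 at 125% and 115%. Homo replicate 2 was the highest library for 30 of the 59 genes and WT replicate 3, the library with the highest neutrophil genes, the lowest for 23. The part of these 2 libraries in the higher sums was not tested.

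**Figure D3:**
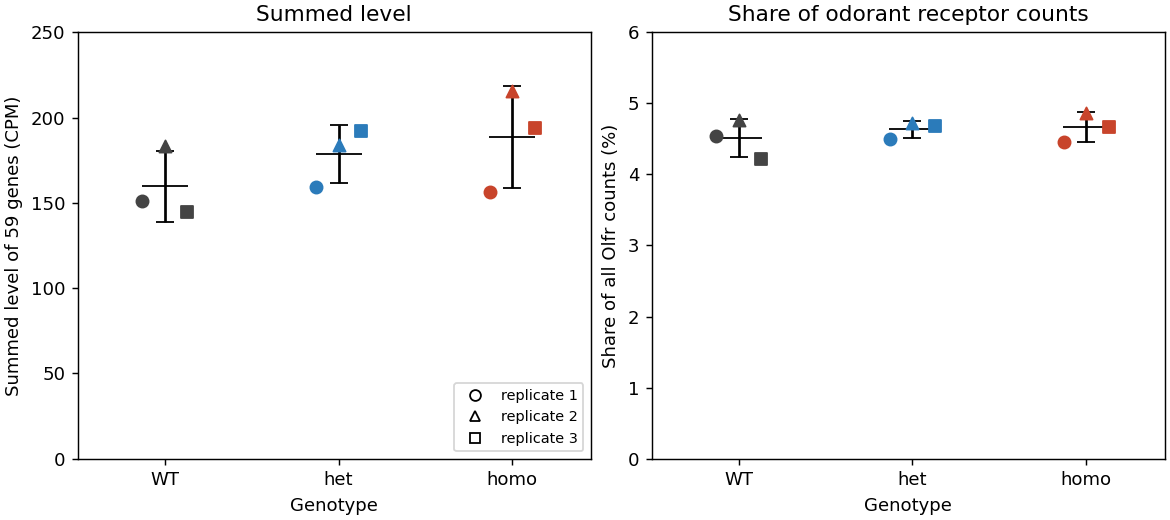
Summed level of the 59 genes in CPM (left) and their share of all Olfr counts in percent (right) by genotype, with 1 symbol per library and bars for the mean ± SD (n = 3). The summed levels of the genotypes overlap, and the shares lie between 4.22% and 4.87%.

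No chromosome 19 receptor gene passed the test between homo and WT, and most stood slightly higher in homo, as did the other Olfr genes. With edgeR's quasi-likelihood test over 19775 genes, adjusted p under 0.05 and a fold change over 1.5, 0 of the 59 genes were called (background 0.0202%). DESeq2 and limma-voom also called 0. Without adjustment, 1 gene of the 59, Olfr1450, had a p under 0.05 (background 3.45%), and 3 had one by DESeq2 and 3 by limma-voom. The log2 fold changes ran from −0.25 for Olfr1500 to 0.63 for Olfr1475, which had 21 counts in all, with a median of 0.26, and 51 of the 59 were above 0. The other 1029 Olfr genes tested had a median of 0.20, and all genes a median of 0.00. When the libraries were instead scaled to their summed Olfr counts, which shifted the median of all genes by −0.18, the median of the 59 genes was 0.047 and 32 were above 0. Leaving out homo replicate 2 lowered the median to 0.10, and leaving out homo replicate 1 raised it to 0.36.

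Olfr1450 had the smallest p of the 59. It stood at 2.40, 2.50 and 1.66 CPM in WT, 2.60, 2.38 and 2.50 in het and 2.86, 4.05 and 2.83 in homo replicates 1, 2 and 3. Every homo library was above every WT library, and homo replicate 2 stood apart from the other homo libraries. On the log2 scale homo exceeded WT by 0.57 (SE 0.23, unadjusted p = 0.0374 and adjusted p = 1 with edgeR), and by 0.37 without homo replicate 2.

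Olfr1420, the eighth highest gene, stood at 5.79, 4.42 and 4.72 CPM in WT, 6.48, 5.74 and 6.57 in het and 6.21, 7.07 and 5.95 in homo. All homo libraries were above all WT libraries, though by a narrow gap to WT replicate 1, and the log2 fold change of 0.37 (SE 0.16, unadjusted p = 0.0518 and adjusted p = 1 with edgeR) did not pass the test. Olfr1447 stood at 5.30, 6.31 and 3.94 CPM in WT and 5.58, 8.32 and 8.29 in homo, where WT replicate 2 lay above homo replicate 1. Its log2 fold change was 0.51 (SE 0.23, edgeR adjusted p = 1). Olfr1420 and Olfr1450 were the 2 genes whose homo libraries all lay above WT, or 3.39% of the 59 (background 2.97%). All homo libraries lay below WT for 0 genes (background 2.71%). Of the 1029 other Olfr genes, 9.72% had all homo libraries above WT and 0.389% had all of them below.

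Of the other highest genes, Olfr1427 had a homo versus WT log2 fold change of 0.41 (SE 0.26), Olfr1443 of 0.31 (SE 0.24), Olfr1440 of 0.30 (SE 0.22) and Olfr1463 of 0.28 (SE 0.25). Olfr1428 with 0.22 (SE 0.24), Olfr1426 with 0.17 (SE 0.19) and Olfr1446 with 0.16 (SE 0.20) were closer to 0, and scaling to summed Olfr counts turned Olfr1426 to −0.021 and Olfr1446 to −0.026. Olfr1442 had −0.10 (SE 0.30), and the sign changed to 0.071 without WT replicate 2. At the ends of the cluster, Olfr1417 had 0.09 (SE 0.29), which changed to −0.14 without WT replicate 3, and Olfr1505 had 0.33 (SE 0.28). None of these values passed the edgeR test, each with an adjusted p of 1.

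The widths of the 95% intervals of the log2 fold changes show what these libraries could resolve. The half-width ran from 0.37 for Olfr1420 to 2.07 for Olfr1475, with a median of 0.67. For homo versus WT, with TMM scaling, the interval excluded a fall by 1.5-fold for 38 of the 59 genes and a fall by 2-fold for 53. The interval excluded a rise by 1.5-fold for only 5 genes, and a 1.5-fold difference in either direction for only 3. It excluded a 2-fold difference in either direction for 28. The lowest bound, −1.48, belonged to Olfr1453, a gene at 0.192 CPM, so for the least expressed receptors a large fall was not detectable at this depth.

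None of the 59 genes passed the test between het and WT. There were 0 calls with edgeR (background 0%, no gene of 19775), DESeq2 and limma-voom. Without adjustment, edgeR gave a p under 0.05 for 0 genes (background 1.28%), DESeq2 for 0 and limma-voom for 1. As for homo versus het below, these fits left the replicate number out of the model, so its differences are in their spread. The median log2 fold change was 0.13, with 43 genes above 0, beside 0.12 for the other Olfr genes, and leaving out WT replicate 3 lowered it to 0.057 where leaving out WT replicate 2 raised it to 0.26. The WT libraries are the same as in the homo comparison, so the values of both comparisons are not independent of each other. The smallest p belonged to Olfr1480, which stood at 0.736, 0.897 and 0.295 CPM in WT, 1.56, 1.02 and 1.27 in het and 0.499, 0.717 and 1.23 in homo. All het libraries were above WT, the 1 such gene of the 59 (background 2.01%, other Olfr genes 6.61%). All het libraries lay below WT for 0 genes (background 1.95%, other Olfr genes 1.55%). The homo libraries of Olfr1480 overlapped both groups. Its log2 fold change was 0.99 (SE 0.47, unadjusted p = 0.0624 and adjusted p = 0.99997 with edgeR). Olfr1443 with 0.40 (SE 0.24) and Olfr1420 with 0.33 (SE 0.17) followed, and neither passed the test.

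**Figure D4:**
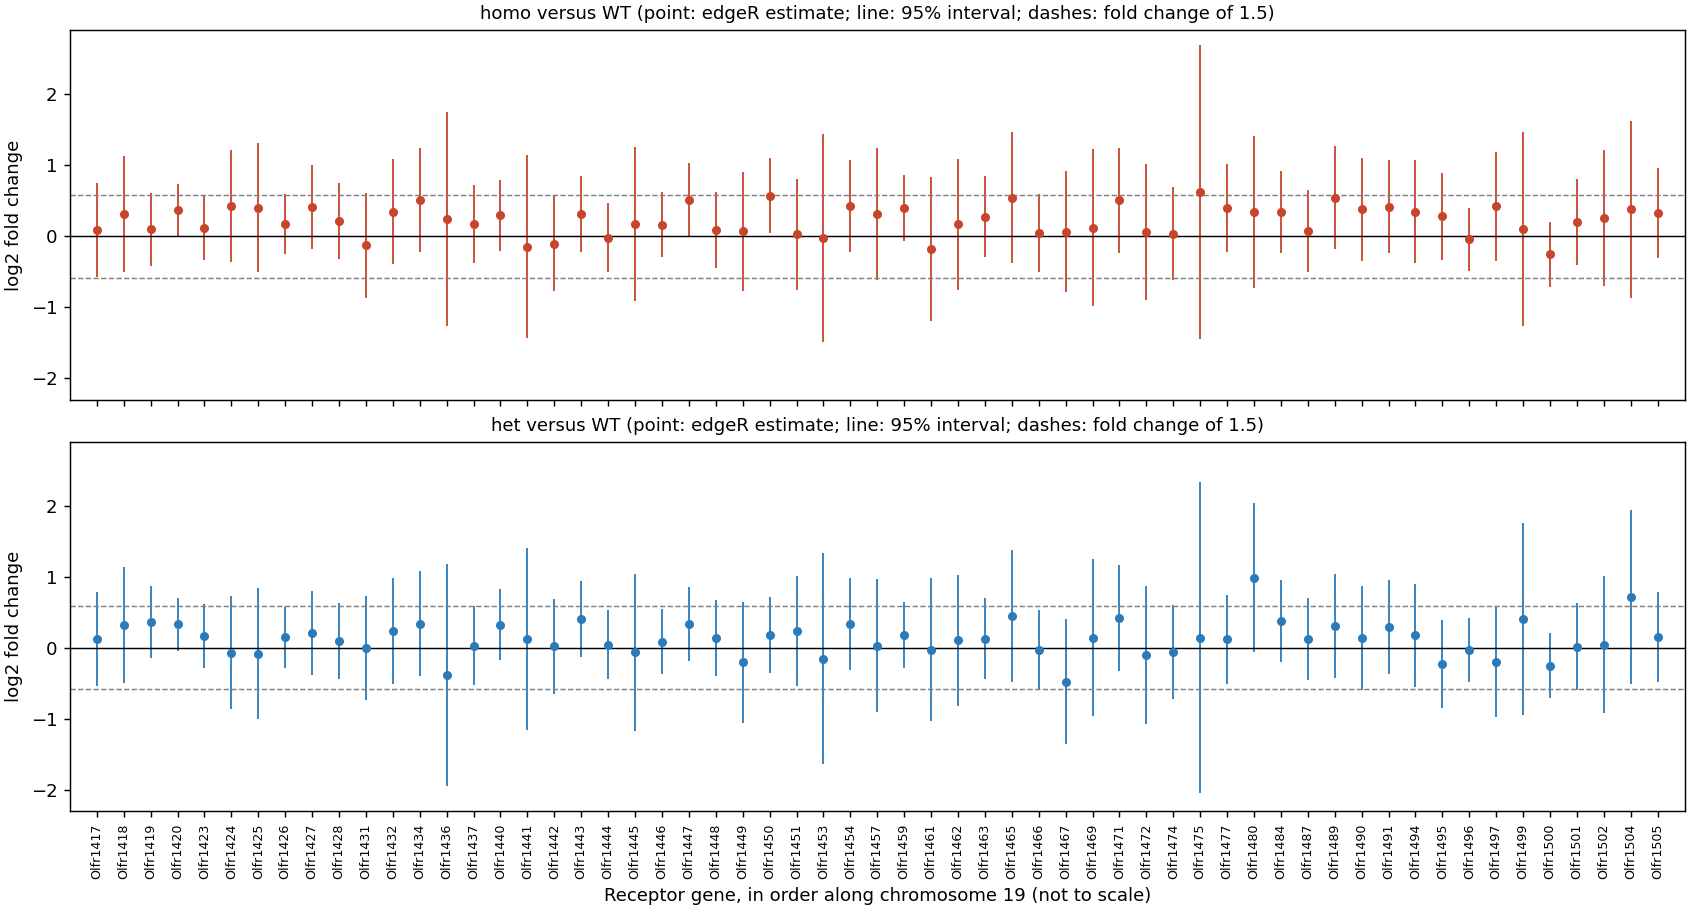
Log2 fold change of homo versus WT (top) and het versus WT (bottom) for each receptor gene in order along chromosome 19 (not to scale), with the edgeR estimate as a point, its 95% interval as a line and dashes at a 1.5-fold change. In the top panel 51 of 59 points and in the bottom panel 43 lie above 0, and the interval of Olfr1475, with 21 counts in all, is the widest in both.

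None of the 59 genes passed the test between homo and het, with 0 calls by edgeR (background 0.00506%), DESeq2 and limma-voom, and 0 genes at an unadjusted p under 0.05 with each tool (edgeR background 0.662%). The median log2 fold change was 0.10, and −0.051 without homo replicate 2. Olfr1495 stood at 1.56, 2.80 and 2.73 CPM in het and 2.63, 3.52 and 3.98 in homo, with het replicates 2 and 3 above homo replicate 1, and had the smallest p (log2 fold change 0.51, SE 0.27, unadjusted p = 0.0928, edgeR adjusted p = 1). Olfr1497 stood at 1.18, 0.869 and 1.11 CPM in het and 2.09, 1.58 and 1.19 in homo, with no overlap and a difference of 0.62 on the log2 scale (SE 0.34, edgeR adjusted p = 1). Olfr1450 had 0.38 (SE 0.23). Homo libraries lay above all het libraries for 3 genes, Olfr1424, Olfr1450 and Olfr1497, or 5.08% (background 2.35%, other Olfr genes 6.22%). They lay below for 0 (background 1.81%, other Olfr genes 1.07%). The edgeR test for any difference among the genotypes called 0 of the 59 (background 0.00506%), with 0 at an unadjusted p under 0.05, and DESeq2 and limma-voom also called 0.

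The other genes of the interval and the genes that receptors need were likewise not called between genotypes. Between Olfr1417 and Olfr1505 lie 15 tabled genes that are no receptors, such as Osbp and Zfp91, and 13 of them could be tested. None was called by edgeR in any of the 3 comparisons. The 3 receptor genes numbered outside the range but located inside the cluster, Olfr76, Olfr235 and Olfr262, were not called either. Olfr235, known like Olfr1440 to respond to muscone, differed by 0.23 between homo and WT on the log2 scale (SE 0.20, edgeR adjusted p = 1). Of 22 genes needed to choose, transport or signal through a receptor, including Lhx2, Ldb1, Rtp1, Adcy3 and Gnal, 0 were called between homo and WT, with a median log2 fold change of 0.07.

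Calls among the 59 genes were made between replicate numbers. The libraries numbered 1 were compared with those numbered 2 and 3, with genotype in the model. They were known from earlier results of these data to lie apart. The p-values of this comparison thus belong to a split chosen with the same data known. The labels do not say what the number marks. Of the 59 genes, 4 were called by edgeR, or 6.78% (background 8.95%), and all 4 were lower in number 1 (background 3.52% for lower alone). Counting calls in either direction, the share of 6.78% was below that of all genes (8.95%). Counting lower calls alone, it was above that of all genes (3.52%), though it rested on 4 genes. The size of this excess was not tested. Of the 1029 other Olfr genes, 146 were called (14.2%), and 134 of these were lower in number 1. Without adjustment, 10 of the 59 had a p under 0.05 (background 42.6%). The median log2 difference was −0.26 with 43 genes below 0, beside −0.22 for the other Olfr genes and −0.03 for all genes. Scaling to summed Olfr counts moved the median of all genes by 0.20 and that of the 59 genes to −0.061, with 2 genes called. The count was also 2 without WT replicate 2, het replicate 1 or 3, or homo replicate 1 or 3.

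Olfr1461 was the 1 gene called under every setting tried for this comparison. It stood at 1.37, 1.94 and 1.18 CPM in the WT, het and homo libraries of number 1, and at 2.84, 2.76 and 3.12 in number 2 and 3.98, 3.41 and 2.94 in number 3. All libraries of number 1 were below all others in each genotype. The log2 difference was −1.09 (SE 0.20, edgeR adjusted p = 0.00483), and its adjusted p lay between 8.56e-04 and 0.0379 over the other settings.

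Olfr1463, the fifth highest gene, stood at 4.91, 5.96 and 6.98 CPM in number 1 and between 7.85 and 9.78 in the other libraries, again without overlap (log2 difference −0.59, SE 0.10, edgeR adjusted p = 0.00365). Olfr1469 stood at 0.392, 0.331 and 0.317 CPM in number 1 and between 0.590 and 0.869 elsewhere (−1.10, SE 0.29, edgeR adjusted p = 0.0202). Olfr1442 stood at 4.61, 3.31 and 3.76 CPM in number 1 and between 4.86 and 6.97 elsewhere, where WT replicates 1 and 3 were close (−0.61, SE 0.16, edgeR adjusted p = 0.0241). Olfr1461, Olfr1463 and Olfr1469 lie near each other in the cluster, with Olfr1462, Olfr1465, Olfr1466 and Olfr1467 between them. Those 4 genes in between were not called.

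**Figure D5:**
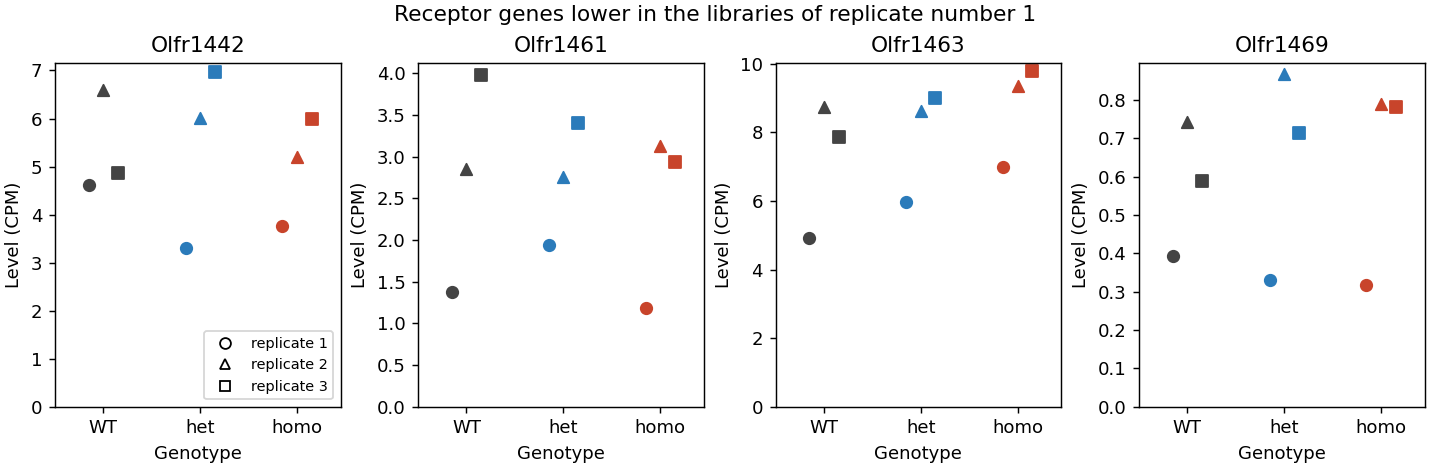
Level in CPM (vertical axes, each from 0) of Olfr1442, Olfr1461, Olfr1463 and Olfr1469 by genotype, with 1 symbol per library and circles for replicate number 1. In each panel the 3 circles lie below all triangles and squares.

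Some cell type markers were called between replicate numbers too, where edgeR called 8.95% of all genes, 3.52% of all as lower in number 1. Single calls in a list are to be read beside that share. Of 6 immature neuron genes 2 rose in number 1 (Gap43 and Gng8), with summed levels of 2272 to 2353 CPM in number 1 against 1612 to 2129 elsewhere. Of 8 mature neuron genes 1 rose, Gng13, while the sums overlapped at 6326 to 6779 against 6336 to 7315 CPM, and Omp, the defining marker, had a log2 difference of −0.05 (SE 0.08, edgeR adjusted p = 0.675). Of the 22 receptor choice and transport genes 4 rose, namely Gng13, Emx2, Lhx2 and Atf5, the first of which is also a mature neuron marker. Lhx2, which binds the enhancers of odorant receptors, had a log2 difference of 0.84 (SE 0.06, edgeR adjusted p = 1.20e-04).

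Of other marker lists, 2 of 3 ciliated cell genes rose in number 1 (349 to 389 against 171 to 277 CPM) and 2 of 5 neutrophil genes fell (679 to 1015 against 269 to 3431 CPM). Of 5 secretory gland genes Sox9 rose and Obp1a fell, and of 5 sustentacular genes 0 were called. Of 5 blood genes, 4 were listed at 0 in all libraries and the last was not called. The part of these cell types in the receptor values was not tested. In the 3 genotype comparisons, 0 genes of these lists were called, and the neutrophil sums were 269 to 679 CPM in homo against 660 to 3431 in WT.

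The order of levels within the cluster was nearly the same in WT and homo. Across the 59 genes the mean levels of WT and homo had a Spearman correlation of 0.98, a description in which gene length, sequence shared with close copies and annotation are common to both groups. Between 8 and 10 of the 10 highest genes were also among the 10 highest of each library. The median coefficient of variation in WT was 29.4% for the 59 genes, with no such value taken for other genes. The fitted biological coefficient of variation had a median of 25.6% for the 59 genes, 24.7% for the other Olfr genes and 19.3% for all genes. Genes of matched level were not compared, so a greater variation of receptors as such was not tested. Genes with under 90% of sequence of their own had a median homo versus WT log2 fold change of 0.32 (25 genes), and the others 0.21 (34 genes).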

How the data were processed

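RNA sequencing of the whole MOE was analysed in 9 libraries, grouped by the genotype in the labels. Libraries were made with a directional kit after polyA selection. The submitters' processing notes name Trimmomatic 0.36, HISAT2 2.1.0, featureCounts of Subread 1.6.2, DESeq2 1.20.0 and build mm10. The authors deposited raw counts per gene symbol. The authors also deposited normalized counts, a signal in which each count is divided by 1 size factor per library (0.806 to 1.28 as recomputed), and these were used for that check only. The annotation release, the strand setting and the treatment of reads matching several genes are not given in the sources used here.

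Raw counts were tested in R 4.3.3 with edgeR 4.0.16 and its quasi-likelihood fit (two-sided, TMM scaling, genotype as the model, all libraries in 1 fit). A gene entered if its 9 libraries held at least 10 counts together, which left 19775 genes and all 59 receptors. A call needed a Benjamini-Hochberg adjusted p under 0.05 over all genes tested and a fold change over 1.5. The 95% intervals came from the fitted standard errors. The fit was run on simulated counts in which 200 genes were changed by 2 on the log2 scale. For homo versus WT it recovered 200 of them, with 5 false calls. Changes of that size are larger than those fitted for any of the 59 receptors, so the simulation does not cover small shifts. A count of 3, taken as a reference floor, equals 0.0928 to 0.147 CPM, but no fold was limited by it. This floor covers counting error only, because several reads may stem from 1 molecule. Coordinates and lengths are from GENCODE M21 and RefSeq GRCm38.p6 tables, and all 59 symbols matched GENCODE. Sequences were read from the GENCODE transcripts, and coding identity came from their pairwise global alignment, as a share of the longer sequence.

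Genes named were the 10 highest, the 3 with the smallest p per comparison, those called, the first and last of the cluster, and the closest pair by coding sequence, since no protein table was used. Other genes, such as Olfr1475, Olfr1437, Olfr1436, Olfr1501 and Olfr1504, were named after their values were seen. The members, the gene lists and the comparison of replicate numbers were chosen with earlier results of these data known. The result of 1 of the marker lists is not reported here. Alternatives were DESeq2 1.42.0, limma-voom 3.58.1, other scalings and filters, fits of only the groups compared, a replicate block, a term for number 1 and leaving out each library. Same-numbered libraries of the paired groups were checked by the correlation of their deviations from their own group's mean, with 16156 genes. For WT with het it came to 0.682, 0.457 and 0.586, for het with homo to 0.807, 0.360 and 0.195, and for WT with homo to 0.532, 0.320 and −0.085. Pairing was accepted where all numbers exceeded 0.1, which held for het with either other group but failed for WT with homo. This rule did not weigh differently numbered libraries. Het replicate 2 with homo replicate 3 came to 0.583, and het replicate 3 with homo replicate 2 to 0.527. Pairs of number 1 with another number lay between −0.731 and −0.446 for het with homo. The rule thus does not show that numbers 2 and 3 match het with homo libraries. The p-values, SEs and intervals given for all genotype comparisons came from fits without pairing. Differences between replicate numbers are thus part of their spread, and the replicate block is given below as an alternative.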

Additional observations from a re-analysis of the deposited data

How the results depend on the processing

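The count of 0 receptors called in each genotype comparison was the same under DESeq2, limma-voom, the other scalings and filters, the fit of only the groups compared, the replicate block, a term for number 1 and each left-out library. With the replicate block the median log2 fold change was 0.23 for homo versus WT, 0.14 for het versus WT and 0.10 for homo versus het, and the block changed no call. Leaving out each library in turn moved these medians over 0.10 to 0.36, 0.057 to 0.26 and −0.051 to 0.22, where the change of sign of homo versus het came without homo replicate 2. Summed levels ranged over 109% to 128% of WT for homo. Without the 3 libraries of number 1, chosen after seeing the data, the medians were 0.35, 0.19 and 0.10, with 0 calls. Scaling to summed Olfr counts gave medians of 0.047 for homo versus WT and −0.061 for number 1 against the others, left 2 receptors called in the latter, and gave homo versus WT values of −0.021 for Olfr1426, −0.026 for Olfr1446 and −0.069 for Olfr1417. The count of 4 called in number 1 ranged from 2 to 4 over left-out libraries and was 2 without WT replicate 2, het replicates 1 or 3, or homo replicates 1 or 3. It was 3 with DESeq2 and 3 with limma-voom. Among single genes, homo versus WT changed sign for Olfr1442 (range −0.25 to 0.071, above 0 without WT replicate 2 or homo replicate 1), Olfr1417 (−0.14 to 0.29, below 0 without WT replicate 3 or homo replicate 1) and Olfr1502 (−0.10 to 0.50, below 0 without homo replicate 2). The cause was not tested.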
